A study of Mus musculus with 10 samples.

Results

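Sugar enters the hepatocyte, is phosphorylated, is broken down and is sensed by a small group of genes, and 8 of them were followed here in mouse liver: *Slc2a2*, *Gckr*, *Khk*, *Pfkl*, *Pfkfb1*, *Pklr*, *Mlxipl* and *Txnip*. They were taken by name and not by their values, though with earlier results of these data known. All 8 were found among the 16647 listed genes and among the 13219 genes tested. Liver RNA had been sequenced from 5 control and 5 MI-883-treated mice. All animals were male humanized PXR-CAR-CYP3A4/3A7 mice, in which human PXR, CAR, CYP3A4 and CYP3A7 stand in for mouse genes, and had been on a high-fat diet (HFD), begun at an age of 10 to 15 weeks, for 8 weeks before dosing. MI-883, described in the study as a CAR agonist and PXR antagonist, was given by oral gavage at 5 mg/kg 3 times per week for 4 weeks in DMSO, PEG300 and corn oil, and control mice received this vehicle alone. No HFD-free and no non-humanized mice were part of the comparison, so every value describes HFD-fed humanized mice. The question was whether the genes of hepatic sugar use differed between treated and control livers.

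GLUT2, encoded by *Slc2a2*, lets glucose pass the hepatocyte membrane in both directions. Glucose is then trapped in the cell by phosphorylation, a step that the nuclear regulatory protein encoded by *Gckr* restrains when glucose is low. Fructose takes another way that begins with ketohexokinase (*Khk*). Liver phosphofructokinase (*Pfkl*), the bifunctional enzyme that sets the level of fructose 2,6-bisphosphate (*Pfkfb1*) and liver pyruvate kinase (*Pklr*) govern the lower pathway. ChREBP, the product of *Mlxipl*, is a transcription factor that responds to sugar phosphates, and *Txnip*, an arrestin that restrains glucose uptake, is among its best known targets together with *Pklr*.

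ChREBP binds a carbohydrate response element, a pair of E-box-like stretches separated by a short spacer. The letters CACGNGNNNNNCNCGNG, which were chosen after the *Pklr* and *Txnip* sequences had been seen so as to take in both, were searched on both strands in promoter windows of RefSeq (GRCm38.p6). They occurred in 120 of 32851 windows (0.365%) and in 2 of the 13 windows of the 8 genes, one of *Pklr* and one of *Txnip*. Each window is set around 1 annotated transcript start, and the bases before this start are shown because they hold these elements, which are in capitals. The *Pklr* sequence is chr3:89136373-89136622 on the plus strand, with the element at 170 to 154 bases before the second of the annotated starts of *Pklr*. This stretch lies downstream of the first start and therefore inside the span of the gene given further on. The *Txnip* sequence is chr3:96557707-96557956 on the plus strand, with the element at 85 to 69 bases before the start of the gene.
Pklr: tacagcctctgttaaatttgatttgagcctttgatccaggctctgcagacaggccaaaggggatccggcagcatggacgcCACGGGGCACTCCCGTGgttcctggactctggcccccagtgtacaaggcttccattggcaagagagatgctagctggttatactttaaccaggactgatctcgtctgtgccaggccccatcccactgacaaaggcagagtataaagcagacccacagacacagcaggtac
Txnip: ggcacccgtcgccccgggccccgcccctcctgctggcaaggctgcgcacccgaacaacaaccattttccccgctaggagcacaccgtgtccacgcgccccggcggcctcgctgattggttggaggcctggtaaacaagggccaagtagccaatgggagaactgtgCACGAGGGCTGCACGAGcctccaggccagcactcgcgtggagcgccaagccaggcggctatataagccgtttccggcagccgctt

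The plain E-box CACGTG was present in 2349 windows (7.15%), among them 1 window each of *Khk* and *Mlxipl*, starting 71 and 98 bases before the transcript start to which the window belongs. That start lies inside the span of *Khk* given further on, so that its E-box is also inside the gene, whereas that of *Mlxipl* is upstream of the gene. It overlapped no copy of the tandem element in these windows. A match of letters is a description and shows no binding, and the values of *Pklr* and *Txnip* follow with the other genes.

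Between 24014461 and 36221514 reads were counted on genes in control livers and between 23513665 and 28349963 in treated livers. Each of the 8 genes had at least 969 counts in every liver, so counting error was small beside the spread between animals. Expression is given as CPM, the counts of a gene scaled to a common library size with TMM factors, ± S.D. over 5 livers. Groups were compared with the quasi-likelihood test of edgeR, with *P* adjusted over all 13219 tested genes and a threshold of 0.05. *Cyp2b10*, a classical target of CAR, checked the treatment: it was at 36.5 ± 9.10 CPM in control and 1019 ± 299 CPM in treated livers (log2 fold change 4.80, adjusted *P* = 3.6e-07). The hepatocyte markers summed to between 69316 and 80444 CPM in control and between 59981 and 72407 CPM in treated livers. Of the 9 tested, 0 were called by edgeR, with 1 higher and 8 lower. Their median log2 fold change was -0.20, beside 0.0045 over all tested genes. The groups did not overlap for 1 of the 9, *Ttr*, against 3.98% of all genes. In whole liver, fewer cells of a type cannot be told apart from less RNA per cell.

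None of the 8 genes passed the threshold in edgeR. Across all tested genes 1.03% passed, 0.764% higher and 0.265% lower in treated livers, so that a count of 0 of 8 lies near this background. At an unadjusted *P* under 0.05 there was 1, *Gckr*, and the Wald test of DESeq2 also called 1, *Gckr*, where it called 3.50% of all genes. The treated and control livers did not overlap in 1 of the 8 genes, again *Gckr*, against 3.98% of all genes. Of the 8 log2 fold changes 5 were above and 3 below 0, 7 lay within 0.2 of 0, and their median was 0.015, beside 0.0045 over all tested genes.

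**Figure D1:**
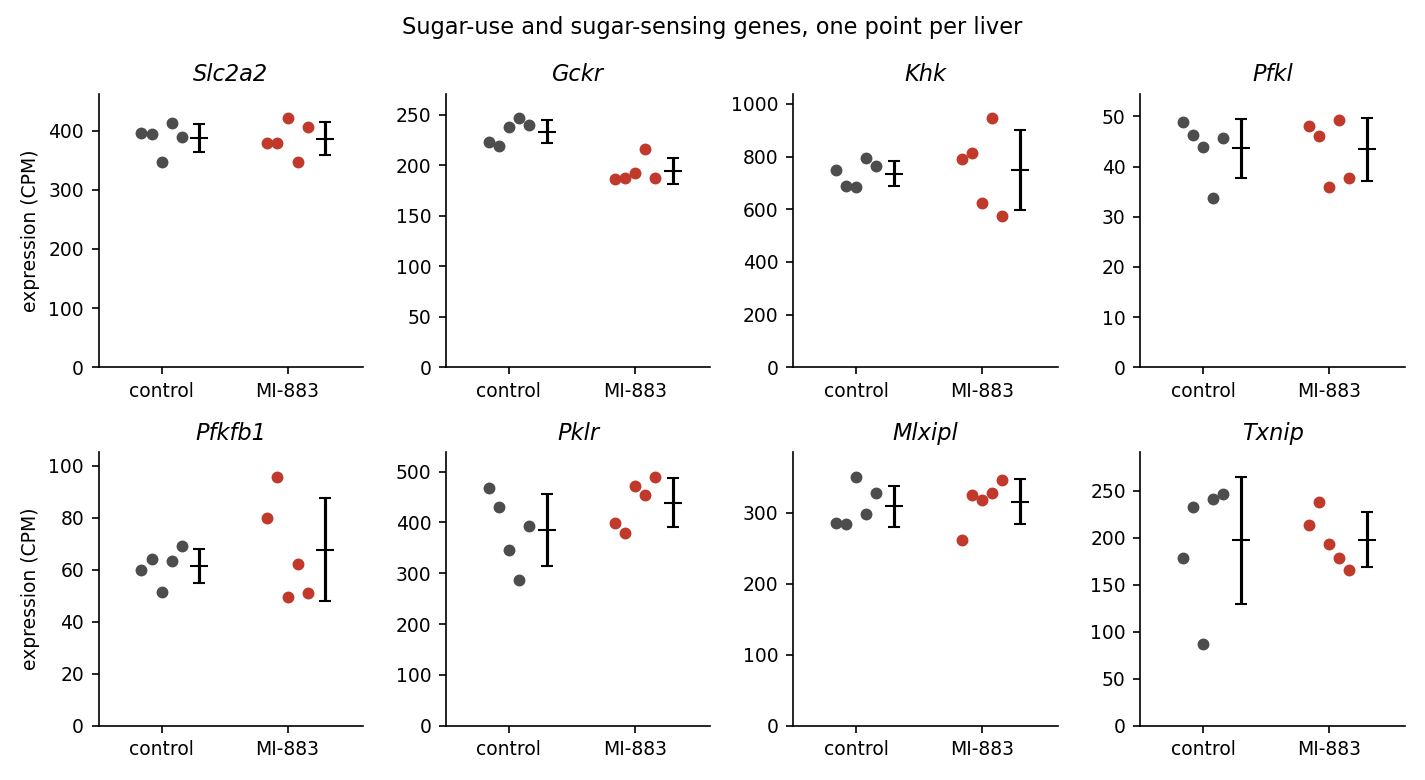
Expression of the 8 genes in CPM (vertical axes, each from 0) in the 5 control (grey) and 5 MI-883-treated livers (red), 1 point per liver, with the mean and S.D. of each group in black beside the points. The groups overlap in every panel but that of *Gckr*, where the highest treated liver is at 216 CPM and the lowest control liver at 219 CPM.

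The carrier came first. *Slc2a2* (chromosome 3, 28697903 to 28728361, GRCm38) was at 395, 394, 347, 412 and 389 CPM in control livers 1 to 5. In treated livers 1 to 5 it was at 378, 379, 421, 347 and 406 CPM. The ranges lay almost on top of each other. The means were 388 ± 24.1 and 386 ± 28.4 CPM, with a log2 fold change of -0.0045 (standard error 0.0759, 95% interval -0.17 to 0.16, adjusted *P* = 0.986). Among the 8 genes it had one of the narrowest intervals.

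Among the other hexose carriers, 9 of 11 listed genes including *Slc2a2* were tested, 3 were higher and 6 lower, and 0 were called by edgeR or by DESeq2. Their median log2 fold change was -0.062. The lowest was *Slc2a4*, the insulin-responsive carrier of muscle and fat, at 0.969 to 1.85 CPM in control and 0.142 to 1.24 CPM in treated livers (log2 fold change -1.19, adjusted *P* = 0.167). The highest was *Slc2a1*, the widely expressed GLUT1, at 6.91 ± 1.31 and 9.73 ± 1.79 CPM (log2 fold change 0.50, adjusted *P* = 0.157). *Slc2a10* and *Slc2a12* had too few counts for the test.

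The largest difference from control, in units of its error, was that of the regulatory protein of glucose phosphorylation. *Gckr* (chromosome 5, 31297266 to 31327302) was at 223, 219, 238, 246 and 240 CPM in control livers 1 to 5. Treated livers 1 to 5 had 186, 187, 192, 216 and 187 CPM. Every treated liver was below every control liver, and 4 of the treated livers lay within a span of a few CPM, with liver 4 above them. The means were 233 ± 11.7 and 194 ± 12.8 CPM, a ratio of 0.831. The log2 fold change was -0.27 (standard error 0.0680, 95% interval -0.41 to -0.12). Its adjusted *P* was 0.0896 in edgeR and 0.00416 in DESeq2, so that the call turned on the test. By exact permutation of the livers (two-sided), *P* was 0.00794, the smallest that 5 livers against 5 can give. This value follows from the groups not overlapping, is no separate evidence, and is unadjusted for the number of genes. Over 10 fits that each omitted 1 liver, the log2 fold change ranged from -0.31 to -0.25, and the adjusted *P* in edgeR ran from 0.0491, without treated liver 4, to 0.209, without treated liver 5.

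**Figure D2:**
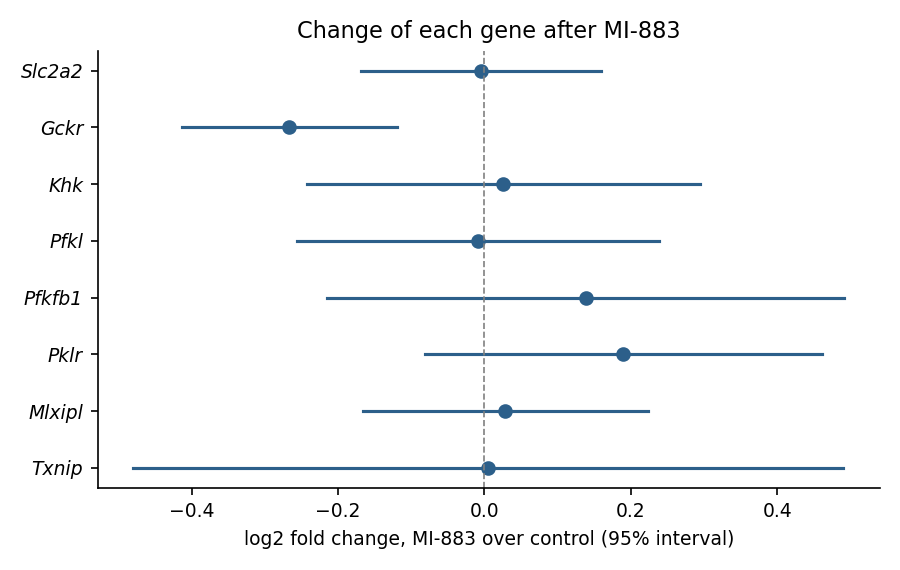
Log2 fold change of MI-883-treated over control livers (horizontal axis) for the 8 genes, with points for the edgeR estimate and lines for its 95% interval, unadjusted for the number of genes. The interval of *Gckr* lies wholly below 0, from -0.41 to -0.12, and those of the other 7 genes hold 0, that of *Txnip* being the widest.

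Fructose use begins with the gene that had the highest level per length of the 8. *Khk* (chromosome 5, 30921436 to 30931248, with 366017 bases between it and *Gckr*) was at 749, 687, 684, 794 and 763 CPM in control livers 1 to 5. After MI-883 the livers 1 to 5 were at 789, 812, 623, 945 and 575 CPM. Treated liver 4 was the highest and treated liver 5 the lowest of all 10, and the control livers lay between them. The means were 735 ± 48.6 and 749 ± 150 CPM (log2 fold change 0.026, standard error 0.124, 95% interval -0.24 to 0.29, adjusted *P* = 0.940). The coefficient of variation was 6.60% in control and 20.1% in treated livers.

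Triokinase (*Tkfc*), which phosphorylates glyceraldehyde further along this route, was at 591 ± 80.5 and 666 ± 26.9 CPM (log2 fold change 0.17, adjusted *P* = 0.384). Of the 8 genes of fructose and polyol use 6 were higher and 2 lower, with a median log2 fold change of 0.052, and 0 were called by edgeR or DESeq2. The lowest was the fructose carrier *Slc2a5* (log2 fold change -0.22, adjusted *P* = 0.527) and the highest the aldose reductase gene *Akr1b3* (log2 fold change 0.41, adjusted *P* = 0.222).

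The phosphofructokinase step was represented by an enzyme and by the gene that controls it. *Pfkl* (chromosome 10, 77986947 to 78009807) was at 48.9, 46.2, 43.9, 33.7 and 45.6 CPM in control livers 1 to 5. In treated livers 1 to 5 it was at 48.1, 46.1, 35.9, 49.3 and 37.7 CPM. The lowest values came from control liver 4 and treated livers 3 and 5, and the rest were close together. The means were 43.7 ± 5.84 and 43.4 ± 6.20 CPM (log2 fold change -0.0086, standard error 0.115, 95% interval -0.26 to 0.24, adjusted *P* = 0.982).

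*Pfkfb1* (chromosome X, 150587445 to 150643878) was at 59.7, 64.1, 51.5, 63.1 and 69.0 CPM in control livers 1 to 5. Treated livers 1 to 5 had 79.9, 95.7, 49.4, 62.3 and 51.1 CPM. Treated livers 1 and 2 were above all control livers, whereas treated livers 3 and 5 were below all of them. The means were 61.5 ± 6.51 and 67.7 ± 19.8 CPM (log2 fold change 0.14, standard error 0.164, 95% interval -0.22 to 0.49, adjusted *P* = 0.715). The coefficient of variation was 10.6% in control and 29.3% in treated livers, the highest among treated livers of the 8 genes. Of the 7 genes that control glycolytic flux, 6 were higher and 1, *Gckr*, was lower, with a median log2 fold change of 0.14 and 0 called by edgeR. The highest was *Pfkfb3*, the inducible relative of *Pfkfb1*, at 28.5 ± 8.19 and 39.5 ± 5.32 CPM (log2 fold change 0.47, adjusted *P* = 0.218).

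At the last step of glycolysis, *Pklr* (chromosome 3, 89136122 to 89146815) was at 467, 430, 345, 287 and 393 CPM in control livers 1 to 5. After MI-883 the livers 1 to 5 were at 398, 378, 472, 454 and 490 CPM. Of the treated livers 4 were above the control median, yet control liver 1 was above 3 of the 5. The means were 385 ± 70.8 and 439 ± 48.0 CPM (log2 fold change 0.19, standard error 0.125, 95% interval -0.081 to 0.46, adjusted *P* = 0.486). With all livers it had the highest log2 fold change of the 8 genes, but this ran from 0.10 without control liver 4 to 0.27 without control liver 1, and *Pfkfb1* was higher without control liver 4 (0.15), treated liver 3 (0.23 against 0.16) or treated liver 5 (0.22 against 0.15). The 95% interval corresponds to changes from -5.46% to 37.6%.

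The ratio of *Pklr* to *Pkm* counts set the liver type of pyruvate kinase against the type of other tissues. It was 17.7, 13.6, 17.3, 13.7 and 20.9 in control livers 1 to 5 and 8.91, 14.7, 15.2, 17.6 and 18.6 in treated livers 1 to 5. Treated liver 1 was the lowest, and the others lay within the control range. The geometric means were 16.4 and 14.6 (difference of log2 ratios -0.17, exact two-sided permutation test, *P* = 0.5, and also 0.5 when adjusted over the 2 ratios tested). *Pkm* itself was at 23.5 ± 5.38 and 30.7 ± 8.13 CPM (log2 fold change 0.38, adjusted *P* = 0.318).

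The glucose sensor differed less than its spread. *Mlxipl* (chromosome 5, 135089890 to 135139768) was at 286, 284, 350, 299 and 327 CPM in control livers 1 to 5. In treated livers 1 to 5 it was at 262, 324, 317, 328 and 346 CPM. Treated liver 1 was the lowest and control liver 3 the highest. The means were 309 ± 28.8 and 315 ± 31.8 CPM (log2 fold change 0.029, standard error 0.0902, 95% interval -0.17 to 0.22, adjusted *P* = 0.907). Counts per gene cannot separate the transcripts that start at different promoters of *Mlxipl*.

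*Txnip* (chromosome 3, 96557957 to 96561857) was at 179, 233, 86.7, 241 and 247 CPM in control livers 1 to 5. Treated livers 1 to 5 had 214, 239, 194, 178 and 166 CPM. Control liver 3 was below all other livers, and the remaining control livers lay among the treated ones or slightly above them. The means were 197 ± 67.6 and 198 ± 29.0 CPM (log2 fold change 0.0051, standard error 0.225, 95% interval -0.48 to 0.49, adjusted *P* = 0.993). This interval was the widest of the 8, and without control liver 3 the log2 fold change was -0.18 (adjusted *P* = 0.514). The coefficient of variation was 34.3% in control and 14.6% in treated livers.

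The genes around the sensor were described in the same way. Of 10 ChREBP-family factors and arrestins, *Mlxipl* and *Txnip* included, 6 were higher and 4 lower, with a median log2 fold change of 0.0065 and 0 called by edgeR or DESeq2. *Mlx*, the binding partner of ChREBP, had a log2 fold change of 0.065 (adjusted *P* = 0.696). *Mlxip*, which encodes the related factor MondoA, was the highest at 9.21 ± 1.21 and 11.1 ± 0.340 CPM (log2 fold change 0.27, adjusted *P* = 0.204). The arrestin *Arrdc3* was the lowest (log2 fold change -0.26, adjusted *P* = 0.508), and *Arrdc4*, a close relative of *Txnip*, had a log2 fold change of -0.16 (adjusted *P* = 0.590).

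Of 18 known ChREBP targets, among them *Pklr*, *Txnip*, *Khk* and *Slc2a2*, 10 were higher and 8 lower, 0 were called by edgeR or DESeq2, and the median log2 fold change was 0.015. *Acly*, which supplies acetyl-CoA for lipid synthesis, was the highest (log2 fold change 0.32, adjusted *P* = 0.264). *Angptl8*, which encodes a secreted inhibitor of lipoprotein lipase, was the lowest (log2 fold change -0.58, adjusted *P* = 0.411). *G6pc*, the glucose 6-phosphatase that releases glucose, was at 585 ± 317 and 545 ± 81.1 CPM (log2 fold change -0.10, adjusted *P* = 0.908).

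Across the whole glycolytic list, 17 of 23 genes were higher and 6 lower, with a median log2 fold change of 0.18, beside 0.0045 over all tested genes, and 0 were called by edgeR. DESeq2 called 3 higher and 2 lower, and those named here were chosen after their values were seen. The higher were the phosphoglucose isomerase gene *Gpi1* (log2 fold change 0.31, adjusted *P* = 0.0139 in DESeq2 and 0.108 in edgeR), *Aldoa* (0.26, 0.0209 and 0.121) and *Aldoc* (0.60, 0.00422 and 0.0582). These 3 were also the genes of the list whose groups did not overlap, which rests on the same livers and is no separate evidence. Over all tested genes, DESeq2 called 3.50% and the groups did not overlap in 3.98%. Among the lower was *Ldha*, the lactate dehydrogenase A gene (log2 fold change -0.26, adjusted *P* = 0.0255 in DESeq2 and 0.163 in edgeR). The highest estimate was that of the neuronal enolase *Eno2*, at only 0.264 ± 0.140 and 0.455 ± 0.220 CPM (log2 fold change 0.74, adjusted *P* = 0.471).

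Beyond glycolysis, 2 genes of the sugar lists were called by edgeR. *Pdk4*, a kinase that shuts pyruvate dehydrogenase and is known to rise with fasting, was at 16.2, 15.03, 6.13, 18.5 and 12.7 CPM in control livers 1 to 5 and at 38.0, 26.6, 38.3, 25.3 and 38.4 CPM in treated livers 1 to 5. Every treated liver was above every control liver. *Pdk4* rose from 13.7 ± 4.72 to 33.3 ± 6.76 CPM (log2 fold change 1.27, standard error 0.2302, adjusted *P* = 0.0198 in edgeR and 7.46e-06 in DESeq2). The adjusted *P* stayed under 0.05 in 8 of 10 fits that each left out 1 liver, and was 0.0624 without control liver 5 and 0.0627 without treated liver 5. The other genes of the pyruvate list were mixed, with 8 of 17 higher and 9 lower and a median log2 fold change of -0.0066.

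*Srebf1*, which encodes the insulin-responsive lipogenic factor SREBP-1, was at 440, 385, 611, 488 and 505 CPM in control livers 1 to 5. After MI-883 the livers 1 to 5 were at 276, 308, 384, 355 and 299 CPM. The groups did not overlap, though treated liver 3 and control liver 2 were almost level. *Srebf1* fell from 486 ± 84.3 to 324 ± 44.2 CPM (log2 fold change -0.58, adjusted *P* = 0.0470 in edgeR and 0.000691 in DESeq2). The adjusted *P* in edgeR stayed under 0.05 in 3 of 10 fits that omitted 1 liver each, without control liver 1, control liver 2 or treated liver 3, and reached 0.131 without treated liver 5. It was 0.0662 with total counts in place of TMM. Of the 12 genes of transcriptional control it belongs to, 11 were lower and 1 higher, with a median log2 fold change of -0.11. The higher was *Nr1i2*, the gene of PXR, at 12.5 ± 2.46 and 13.1 ± 1.15 CPM (log2 fold change 0.073, adjusted *P* = 0.812), which are reads placed on the mouse gene in mice that carry human PXR.

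Glycogen genes were higher in 11 of 15 and lower in 4, with a median log2 fold change of 0.12 and 0 called by either test. Of 8 pentose phosphate genes 6 were higher and 2 lower, with a median of 0.12 and 0 called by edgeR, while DESeq2 called *Tkt*, which encodes transketolase (log2 fold change 0.29, adjusted *P* = 0.0484 in DESeq2 and 0.156 in edgeR). The sugar lists and the fasting genes together held 124 genes, of which 122 were tested. Of these, 1 was called higher and 1 lower by edgeR, and 9 were called by DESeq2. Over all tested genes, edgeR called 1.03% and DESeq2 3.50%. The edgeR count therefore lies near its background, and the DESeq2 count of 9 of 122 above its own. The lists were chosen with earlier results of these data known, and these counts carry no test.

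**Figure D3:**
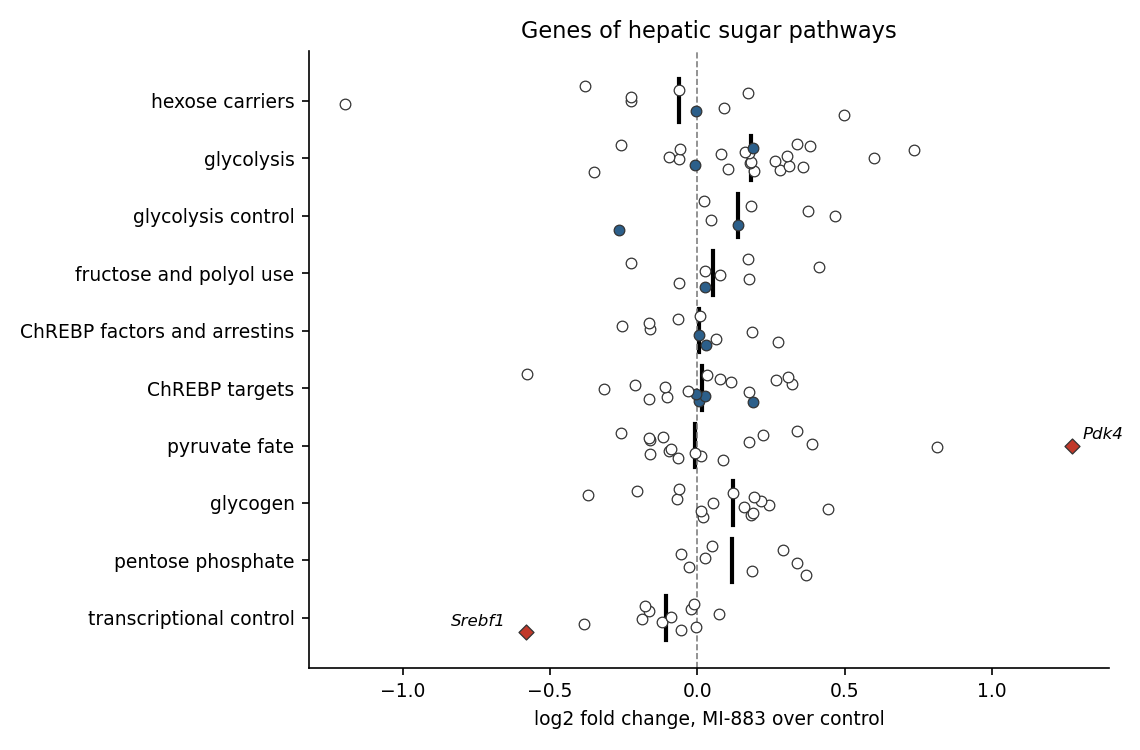
Log2 fold change of MI-883-treated over control livers (horizontal axis) for every tested gene of 10 sugar-related lists (rows), with black bars for the median of each list, blue points for the 8 genes, red diamonds for genes with an adjusted *P* under 0.05 in edgeR and open circles for the rest; a gene on several lists is drawn in each. The called genes are *Pdk4* at 1.27 and *Srebf1* at -0.58, and the list medians lie between -0.11 and 0.18.

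Values that go with the feeding state and with the time of day were read beside these results. Of 10 fasting genes 2 were higher and 8 lower, *Pdk4* was the called gene, and their sums ran from 5182 to 8792 CPM in control and from 6136 to 7643 CPM in treated livers. Control liver 1 stood low for *Pck1* (1420 CPM), *G6pc* (184 CPM) and *Igfbp1* (12.0 CPM), which rise in fasted liver. *Pdk4*, of the same list, was not low in this liver, at 16.2 CPM beside a control mean of 13.7 CPM. Of 13 tested clock genes 4 were higher and 9 lower and 0 were called, with sums of 779 to 916 CPM in control and 717 to 793 CPM in treated livers. The part of feeding state or sampling time in the sugar genes was not tested.

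Markers of other liver cells were read as well. Stellate cell markers summed to between 93.5 and 165 CPM in control and between 134 and 202 CPM in treated livers, with 5 of 6 higher, and bile duct markers to between 25.0 and 117 CPM and between 35.1 and 190 CPM, with 5 of 5 tested higher. Macrophage markers (4 of 6 higher, 106 to 160 and 92.8 to 174 CPM) and endothelial markers (4 of 5 higher, 101 to 140 and 114 to 149 CPM) overlapped between the groups. Blood and leukocyte markers were higher in 2 of 6 (31.6 to 72.7 and 25.5 to 60.6 CPM), and the neutrophil gene *Ly6g* had 1 count in all. No marker of any of these lists was called by edgeR or DESeq2. The fat cell genes *Adipoq* and *Plin1* held 14 and 7 counts over all 10 livers, and the muscle genes *Ckm*, *Acta1* and *Mb* held 1, 4 and 2. *Cidea*, the 1 tested gene of the fat cell list, was at 54.4 to 81.8 CPM in control and 36.9 to 88.7 CPM in treated livers. *Cela1*, the 1 tested gene of the pancreas list, was at 13.7 to 23.1 and 15.3 to 26.4 CPM. Neither was called. The part of cell composition in the sugar genes was not tested.

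Compared per length, the order of levels of the 8 genes was clear only in part. The length used was that of all exons of a gene together. For *Mlxipl* this was 5538 bases, beside 3622 for its longest transcript, so its place depends on the length chosen. The level per kilobase of exon in control livers was 409 CPM for *Khk*, 119 for *Pklr*, 67.3 for *Slc2a2*, 63.2 for *Txnip*, 55.8 for *Mlxipl*, 53.8 for *Gckr*, 15.3 for *Pfkfb1* and 6.54 for *Pfkl*. *Slc2a2*, *Txnip*, *Mlxipl* and *Gckr* overlapped with their neighbours in this order, and the other steps between neighbours were larger than the spread of the control livers. In treated livers the means stood in the same order, with *Gckr* at 44.7 CPM per kilobase.

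Within groups the genes did not move as 1 block. After the group mean of each gene was taken off, the correlations of the 28 pairs over 10 livers ran from -0.66, for *Pfkl* with *Slc2a2*, to 0.62, for *Pfkfb1* with *Khk*, with 10 positive and 18 negative. These are descriptions over livers that share a library for both genes, and carry no test. Treated livers 3 and 5 were the lowest of their group for *Khk*, *Pfkfb1* and *Pfkl* and the highest for *Slc2a2* and *Pklr*. Over 7781 genes the deviations of these livers went with the log2 length of the transcript, with a correlation across genes of 0.36 and 0.39, and in control liver 4 and treated liver 1 this was -0.34 and -0.26, whereas in the other 6 libraries it lay between -0.083 and 0.037. *Khk* has the shortest transcript of the 8 genes, at 1583 bases, and *Slc2a2* the longest, at 5569. *Pfkfb1* and *Pfkl*, also low in treated livers 3 and 5, have 2681 and 3730 bases, and *Pklr*, high in them, has 2902. The part of transcript length in the deviations of single genes was not tested. When both livers were left out, a choice made after seeing the data, 0 of the 8 genes were called by edgeR, the log2 fold change was 0.21 for *Khk*, 0.37 for *Pfkfb1*, 0.096 for *Pklr* and -0.24 for *Gckr* (adjusted *P* = 0.335), that of *Pdk4* was 1.123 (adjusted *P* = 0.190) and that of *Srebf1* -0.63 (adjusted *P* = 0.150). The treated group then held 3 livers. With the trend over length taken out instead and all 10 livers kept, *Gckr* was at -0.26 with an adjusted *P* of 0.0541 in edgeR. In this fit *Pdk4* was at 1.29 (adjusted *P* = 0.0186) and *Srebf1* at -0.58 (adjusted *P* = 0.0320), both under the threshold.

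**Figure D4:**
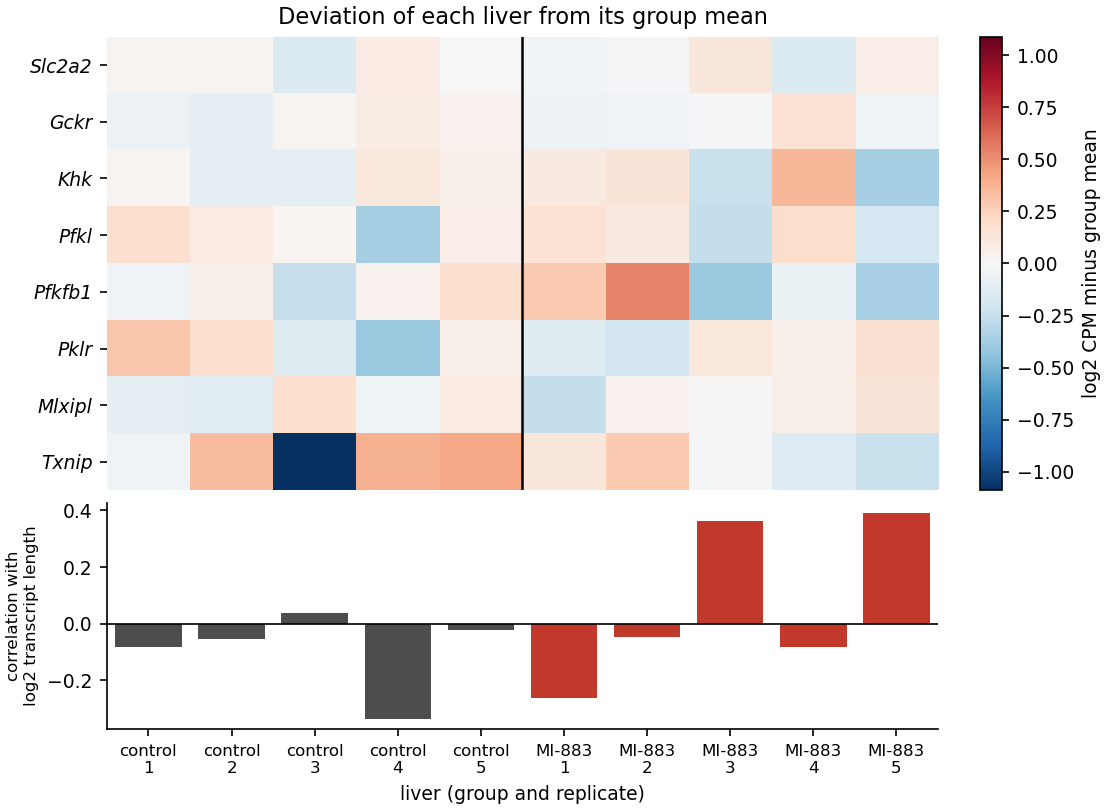
Upper panel: log2 CPM of the 8 genes (rows) in each liver (columns, control then MI-883) minus the mean of its group, in red above and blue below it. Lower panel: correlation, across 7781 genes, of the deviations of each liver with the log2 length of the transcript; treated livers 3 and 5 are the highest at 0.36 and 0.39, and control liver 3 has the lowest *Txnip* value.

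The genes whose deviations followed each of the 8 most closely were sought among 7787 genes with at least 10 CPM. *Gckr* went with *Fbxw2*, *Ift46* and *Tinf2* (Pearson *r* of 0.93, 0.92 and 0.92 over 10 livers), and *Pklr* with *Anapc2*, *Unc13b* and *Sft2d2* (0.95, 0.93 and 0.91). *Pfkl* went with *Zfp622*, *Jup* and *Stk40* (0.94, 0.94 and 0.93), and *Pfkfb1* with *Rnf168*, *Rnf7* and *Eef1a1* (0.96, 0.94 and 0.94). *Khk* went with *Ndufb7*, *Ndufs7* and *Park7* (0.96, 0.96 and 0.96), and *Slc2a2* with *Rap2c*, *Fubp1* and *Lancl2* (0.97, 0.96 and 0.96). *Mlxipl* went with *Ehmt1*, *Prox1* and *Chd3* (0.97, 0.97 and 0.97), and *Txnip* with *Smad5*, *Abcd2* and *Nampt* (0.95, 0.92 and 0.92). These are the highest among 7787 correlations over few livers and carry no test, and no other of the 8 genes was among them.

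Some of the 8 genes share their position with others. *Pklr* overlaps *Hcn3*, which was at 29.7 to 68.9 CPM in control and 30.7 to 46.8 CPM in treated livers. *Pfkfb1* overlaps *Apex2*, which was at 5.31 to 6.42 and 4.63 to 7.44 CPM. The ranges of the groups overlapped for both neighbours. *Slc2a2* and *Txnip* overlap the long non-coding RNA genes *1700112D23Rik* and *Gm15441*, for which no values were analysed here. The strand setting of the counting was not given in the sources used here, so reads of overlapping stretches were uncertain for these 4 genes.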

How the data were processed

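Total RNA of 10 livers (5 control, 5 MI-883) was made into directional paired-end libraries, and each library is a separate sample with its own number. The authors aligned the reads with STAR to the mouse genome and counted them per gene with featureCounts. Per the labels, fastp 0.23.0 and the build mm10 were used, and the annotation and strand setting were not given in the sources used here. The deposited values are raw counts per Entrez gene, without normalization. The labels do not say whether the mice were littermates or shared cages.

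Of 16647 genes, 16644 were matched to RefSeq GRCm38 symbols. Genes with 60 or more counts summed over the 10 livers (13219; 3428 were below) were compared in R 4.3.3 with edgeR 4.0.16 (TMM, quasi-likelihood test, condition only, Benjamini-Hochberg adjustment, threshold 0.05). Ratios were compared by exact permutation over livers. A floor of 3 counts is 0.104 CPM in control and 0.117 CPM in treated livers on average and covers counting error only. Replicates of a group differed by 23.6 to 69.2 times the sampling noise (chi-square per degree of freedom, 20 pairs). Lengths come from GENCODE vM21. Alternatives were DESeq2 1.42.0, other scalings and filters, the replicate number as a block, and leaving out livers. The length trend and the fits without treated livers 3 and 5 were chosen after seeing the data, as was the tracking of *Pdk4* and *Srebf1*. The scripts were tested on simulated data.

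The 8 genes and the gene lists were chosen with earlier results of these data known. All 8 genes are named. List genes are named if they passed the threshold, had the largest or smallest log2 fold change of their list, or act with one of the 8 (*Tkfc*, *Pkm*, *Mlx*, *Mlxip*, *Arrdc4*, *Srebf1*, *G6pc*). The 3 most similar genes of each were taken by correlation. Other genes were named after their values were seen. A few genes covered by it are not reported here.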

Additional observations from a re-analysis of the deposited data

Results flagged for a closer look

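In 40 groups of 5 livers (the 8 genes and other named values), the gap of the extreme liver to its neighbour was compared with the range of the group by Dixon's test. Of these, 2 exceeded the critical value, and chance alone gives about 1 in 20, or 2. *Gckr* was at 216 CPM in MI-883 liver 4, while the nearest treated liver was at 192 CPM and the gap made up 0.813 of the range. *Pkm* was at 44.7 CPM in MI-883 liver 1, while the nearest was at 31.0 CPM and the gap made up 0.723 of the range. The reason for either value was not tested.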

How the results depend on the processing

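The number of genes called by edgeR was 136. It was 463 with DESeq2, 89 with the replicate block and 54 without MI-883 livers 3 and 5, and ran from 62 (without MI-883 liver 5) to 208 (without control liver 1) when each liver was left out. Between 130 and 178 genes were called with the other scalings and filters and with the length trend taken out. Of the 8 genes, 1 was called by DESeq2, and 0 to 1 when each liver was left out, the call being *Gckr* without MI-883 liver 4. The cause of these differences was not tested.

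Same-numbered livers were not treated as paired, and the labels do not say what the numbers stand for. The correlations of their deviations over 7788 genes were 0.37, 0.025, -0.034, 0.047 and 0.070, and 1 of 10 livers correlated best with its own number. These values cannot show whether livers of a number shared a cage or litter. In the block fit the adjusted *P* was 0.121 for *Gckr*, 0.0545 for *Pdk4* and 0.0232 for *Srebf1*, and the ratio of *Pklr* to *Pkm* had an exact permutation *P* of 0.625.

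Estimates near 0 changed sign. *Pfkl* was at 0.024 with total counts, 0.0069 with 60 counts in every sample and 0.13 without MI-883 livers 3 and 5. *Slc2a2* was at 0.044 and 0.014 under the first pair of these settings, and *Mlxipl* at -0.020 without MI-883 livers 3 and 5. When each liver was left out, log2 fold changes ran from -0.089 to 0.053 for *Pfkl*, from -0.018 to 0.23 for *Pfkfb1*, from -0.072 to 0.11 for *Khk*, from -0.041 to 0.032 for *Slc2a2*, from -0.0058 to 0.090 for *Mlxipl* and from -0.18 to 0.098 for *Txnip*. The difference of log2 ratios of *Pklr* to *Pkm* ran from -0.26 to 0.0034. *Gckr*, *Pdk4* and *Srebf1* kept their direction in all 19 alternatives, as did *Pklr*. Total counts moved the median of all genes to 0.049. With 5 livers a group, the 95% intervals of the 8 genes leave room for differences of the size shown in the report.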
